A study of Mus musculus with 2 samples.

Results

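6 classical target genes of the PPAR receptors, Plin2, Hilpda, Angptl4, Fabp4, Pdk4 and Cpt1a, were examined in a genome-wide map of PPARγ in mouse TH2 cells, a class of CD4 T cells that acts in allergy and in defence against worms. A row of the deposited peak list belonged to a gene when its centre was nearest to a protein-coding transcription start site of that gene, or lay in its gene body, within 100 kb of the start site. By that rule 14 of the 2537 peaks belonged to these 6 of 21853 protein-coding genes. The map comes from C57BL/6J naive CD4 T cells that were activated and polarised in culture, and received on days 1 and 2 a retrovirus expressing PPARγ with a TY1 epitope tag. Chromatin of day 4 was precipitated with a TY1 antibody, so the map shows the introduced, tagged receptor and not the receptor that TH2 cells make themselves. There was 1 ChIP library of 10229438 tags, per the file header, and 1 input library from the same kind of transduced cells with no antibody. Per the series text there were further runs of the experiment, of which 1 was used. Without a replicate, a sample lacking the tagged receptor or an expression measurement, no value here has a replicate error, no groups could be tested and the cell type could not be checked against marker genes.

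PPARγ is a nuclear receptor that is switched on by fatty acids and their derivatives. It binds DNA together with its partner RXR at a direct repeat of the sequence AGGTCA with 1 base between the repeats, called DR1 or the PPAR response element, with PPARγ on the 5′ repeat and RXR on the 3′ repeat. In fat cells it drives storage of triglyceride, in macrophages it responds to lipid uptake, and in liver the related receptor PPARα uses the same kind of element to switch on fatty acid burning during fasting. The 6 genes stand for these programmes. Plin2 encodes a coat protein of lipid droplets, Hilpda an inhibitor of triglyceride breakdown at the droplet, Angptl4 a secreted inhibitor of lipoprotein lipase and Fabp4 the fatty acid carrier of fat cells and macrophages. Pdk4 encodes a kinase that shuts pyruvate out of the mitochondrial citric acid cycle, and Cpt1a the enzyme that commits long-chain fatty acids to import into mitochondria.

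The DR1 elements found in the peaks carry much of what follows, so they are shown first. Each line gives the element in its own 5′ to 3′ direction, with the 13 bases of the repeat in capitals (positions counted from 1 at the first capital, with the spacer at position 7) and the 4 bases upstream in lower case. An element here is a match to AGGTCANAGGTCA on either strand that departs from it at no more than 2 of the 12 fixed bases, in the 200 bp around the peak centre. A peak without such a match can still hold a response element with more changes. Distances run from the start site of the principal transcript to the middle of the element.
Pdk4, 13524 bp upstream: aagtAGGTGAAAGGTTA
Pdk4, 13605 bp upstream: tagtAGGTGAAGGGTCA
Plin2, 1937 bp upstream: ttgtAGGTGAAAGGGCA
Plin2, 20218 bp upstream: aactAGGGCAAAGTTCA
Hilpda, 1503 bp upstream: aagtAGGGGAAAGGTCA
Hilpda, 25797 bp upstream: aagcAGGTGAAAGGTCC
Fabp4, 3664 bp upstream: aagtAGGTCACAGTTTA

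All 6 genes had a peak, against 8.35% of protein-coding genes (1825 of 21853, exact 95% binomial interval 7.99 to 8.73). The genes had been named as PPAR targets with earlier results of this map known, so their count is a description. Plin2 had 4 peaks, and 29 protein-coding genes (0.133%) had as many or more. Hilpda had 3 (0.421% of genes had as many or more, 92 genes), Angptl4, Pdk4 and Cpt1a had 2 each (1.76%, 384 genes), and Fabp4 had 1. In 4 of the 6 genes, all but Angptl4 and Cpt1a, a peak held a DR1 match, against 2.06% of all protein-coding genes (450 genes). Each gene had a peak within 10 kb of a start site, as 3.79% of all genes did (829 genes). Only 1825 genes had any peak, so among genes with a peak both features were far more common than these shares.

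**Figure D1:**
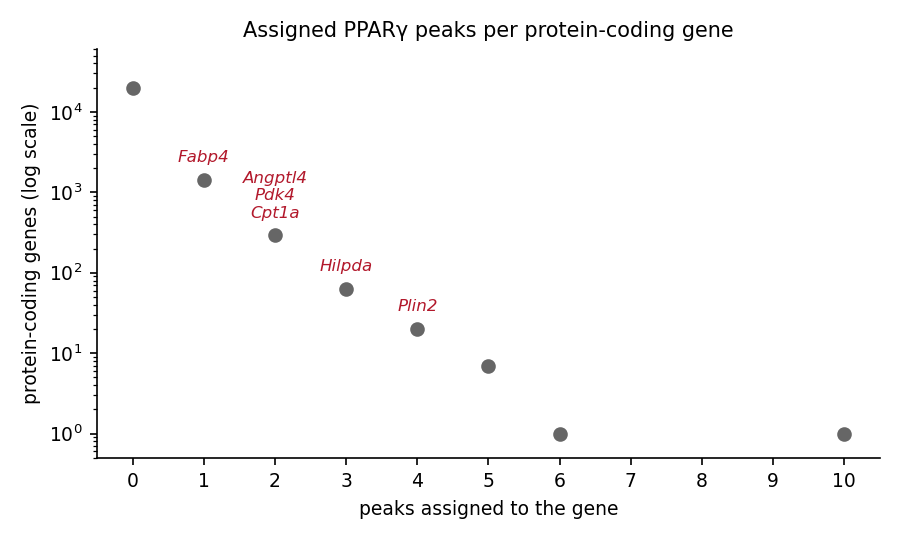
Number of protein-coding genes (y axis, log scale) with each number of assigned PPARγ peaks (x axis), with the 6 target genes named above the point of their count. Fabp4 stands among the 1441 genes with 1 peak, and Plin2 among the 20 genes with 4.

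Most of the peaks lay upstream of the genes. Upstream were 11 of the 14, and the other 3 were in introns: 1 in Angptl4 and 2 in Cpt1a. Measured from the principal transcript, 0 of the 14 peak centres were within 1 kb of the start site, and 1, at Cpt1a, was within 1 kb of an alternative one. The closest, at Plin2, was at 1036 bp and the farthest, at Hilpda, at 25.8 kb. Their GC content was between 42.2 and 56.1% (median 48.0%), against a median of 43.4% over all peaks. In none of the 14 was more of the sequence masked as repeat than not.

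**Figure D2:**
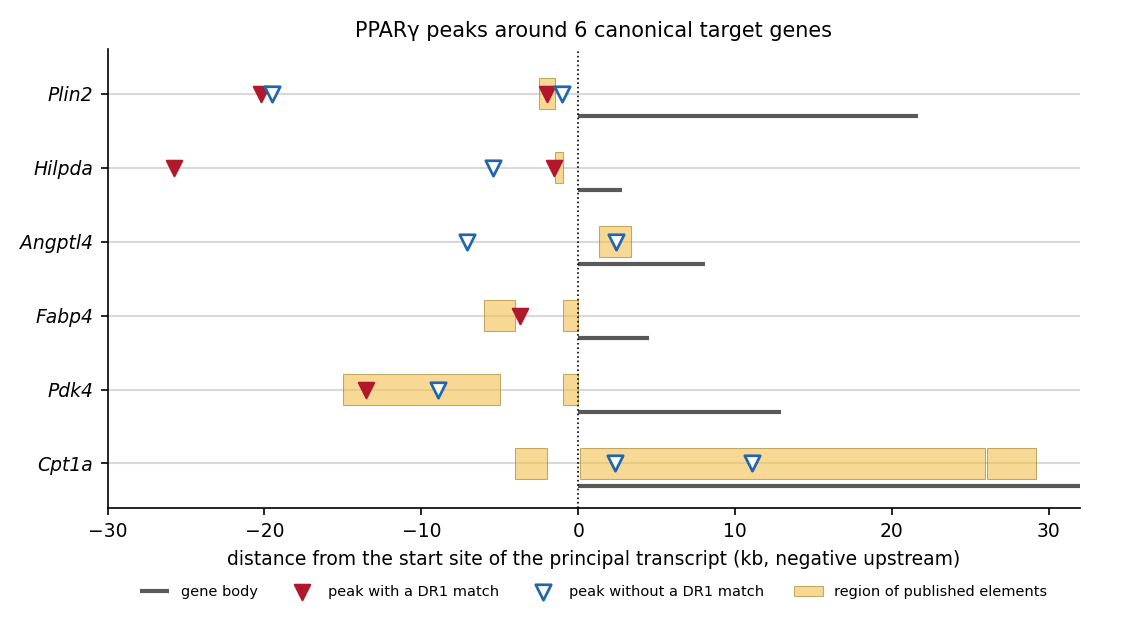
Positions of the 14 peaks (triangles, filled with a DR1 match, open without) relative to the start site of each gene's principal transcript (x axis, kb, negative upstream), with the gene body as a grey bar and the region of published elements shaded. The 14 centres run from 25.8 kb upstream (Hilpda) to 11.1 kb downstream (Cpt1a), and 6 of them lie in a shaded region, while the proximal Hilpda peak overlaps one by its edge only.

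The sites were then set against response elements that have been described for these genes in fat, liver or macrophages. Those elements are known here from the general literature and not from the deposited data, and each was therefore entered as a region, an intron or a round interval upstream of the principal start site, and not as a sequence. Of 10 such regions, 5 held or touched a peak, 4 had a peak centre inside, and 7 of the 14 peaks lay in or touched one. The regions differ widely in length. Intron 1 of Cpt1a, which held 2 of these peaks, is 25814 bp long, and the Pdk4 region, which held 2 more, runs from 5 to 15 kb upstream. In 3 regions such a peak held a DR1 match, which at Hilpda was centred outside the region. How often other regions of the same lengths hold a peak was not computed, so the count does not show that the described elements are bound.

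At Plin2, which is induced by PPAR ligands and by lipid loading in macrophages and liver, the described element lies about 2 kb upstream (region 1.5 to 2.5 kb). A peak centred 1999 bp upstream lay inside that region and held the only DR1 match of the region, 1937 bp upstream. The peak is printed on the + strand of the genome, so the element, which lies on the − strand, appears in capitals as its reverse complement. This peak also held the AP-1 site TGANTCA, in the letters tgagtca.
Plin2, chr4:86671973-86672145 (mm10, + strand): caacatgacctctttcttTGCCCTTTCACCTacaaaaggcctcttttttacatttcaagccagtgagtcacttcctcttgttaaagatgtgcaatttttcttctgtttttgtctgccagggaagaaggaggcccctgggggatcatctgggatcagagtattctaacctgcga

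The other 3 Plin2 peaks were outside that region. They were centred 1036 bp, 19.5 kb and 20.2 kb upstream, so that the 4 peaks formed 2 pairs, spaced 963 bp and 679 bp within a pair and 17.5 kb apart. Each pair joined a peak with a DR1 match to a peak without one. The distal DR1 match, aactAGGGCAAAGTTCA, lay 3 bp from its peak centre and carried the changes T4G and G10T against the repeat. The nearest other protein-coding start sites to the Plin2 peaks were those of Haus6 and Dennd4c, each more than 58 kb away (58.3 kb for the closest).

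Hilpda has been described as a PPAR target in liver through an element a little over 1 kb upstream (region 1 to 1.5 kb). Its nearest peak, centred 1416 bp upstream of the outermost start site and 1554 bp upstream of the principal one, overlapped that region by its edge, and its centre was outside. The DR1 match, aagtAGGGGAAAGGTCA with the changes T4G and C5G, lay 1503 bp from the principal start site and 1365 bp from the outermost, so it lay within 1 to 1.5 kb of the outermost start site and just beyond 1.5 kb from the principal one. Among all 2537 peaks, 67 (2.64%) had a best 13-mer with as high a score (the weight matrix score described below), the highest place of any of the 14.
Hilpda, chr6:29270986-29271158 (mm10, + strand): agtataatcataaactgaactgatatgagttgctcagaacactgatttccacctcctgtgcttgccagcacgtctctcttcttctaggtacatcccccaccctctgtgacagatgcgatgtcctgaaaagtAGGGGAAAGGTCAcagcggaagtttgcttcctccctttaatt

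A further Hilpda peak, centred 5318 bp upstream of the outermost start site, fell just short of the DR1 definition. Its best 13-mer, gagcAGGGGAAAGGGCA, has 3 mismatches, of which T4G and C5G are also those of the proximal element and T11G is not, and lay 5 bp from the peak centre. The start site of Fam71f2 was the nearest of another protein-coding gene to the 2 peaks closer to Hilpda, at 8.52 kb from the proximal one. The third peak, 25.6 kb upstream of the outermost start site, held aagcAGGTGAAAGGTCC (C5G and A13C). It was nearer to the small nucleolar RNA gene Gm26021 (12.4 kb) than to Hilpda, and 30.5 kb from the start site of Impdh1.

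At Angptl4 the described response element lies in intron 3, in mouse and human, and is used in liver and fat cells. One of the 2 Angptl4 peaks was in intron 3, centred 2378 bp downstream of the start site, and by the definition above it held no DR1 match. The only DR1 match of intron 3, aagtAGGAGAAAGGTCA (T4A and C5G), lay 2527 bp downstream of the start site and 56 bp outside the edge of the peak. Inside the peak, 2302 bp from the start site and on the opposite strand, the best 13-mer was aagtAGAGGAAAGTTCA, with 4 mismatches (G3A, T4G, C5G and G10T). The 2 sequences begin 225 bp apart on opposite strands and carry the same 4 bases upstream. The 246 bp below run from the element outside the peak to the end of the peak, with both 13-mers in capitals, the second as its reverse complement.
Angptl4, chr17:33779293-33779538 (mm10, + strand): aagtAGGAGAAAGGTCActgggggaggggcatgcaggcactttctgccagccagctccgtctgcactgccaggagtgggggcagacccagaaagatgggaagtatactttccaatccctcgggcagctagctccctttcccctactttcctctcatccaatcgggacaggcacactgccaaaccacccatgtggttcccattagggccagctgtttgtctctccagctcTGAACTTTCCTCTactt

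By a weight matrix score described below, 5.72% of all peaks had a best 13-mer as high as the element outside, and 25.2% one as high as the 13-mer inside. The other Angptl4 peak, 7078 bp upstream, lay 3.18 kb from the long noncoding RNA gene 4931413I07Rik, nearer than to Angptl4. It held a single exact AGGTCA in gactAGGTCAGGGTTAC, whose 3′ repeat carried 4 changes (A8G, G10T, C12A and A13C).

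Fabp4, known in fat cell research as aP2, has one of the best known PPARγ elements, an enhancer a little over 5 kb upstream that holds a pair of response elements and drives expression in fat cells. No peak overlapped the region from 4 to 6 kb upstream, nor the 1 kb next to the start site, where further elements have been described. The region held 0 DR1 matches of up to 2 mismatches, a limit that can miss response elements with more changes. Its best 13-mer, tactGGATCAGAGTTCA (A1G, G3A and G10T), lay 5342 bp upstream, where the enhancer is described, and 1555 bp from the edge of the nearest peak. The second best, gttcAGGCCAGGAGTCA, lay 4999 bp upstream, 1212 bp from that peak. The single Fabp4 peak was centred instead 3694 bp upstream, with its edge 220 bp outside the region. It held the DR1 match aagtAGGTCACAGTTTA, shown in capitals below as its reverse complement.
Fabp4, chr3:10212184-10212356 (mm10, + strand): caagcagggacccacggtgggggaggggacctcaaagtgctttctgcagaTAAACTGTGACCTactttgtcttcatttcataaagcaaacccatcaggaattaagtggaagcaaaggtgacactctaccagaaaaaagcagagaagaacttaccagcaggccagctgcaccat

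This was the only one of the 7 elements with an intact 5′ AGGTCA and with cytosine as the spacer. Both of its changes, G10T and C12T, were in the 3′ repeat. Neighbouring members of the same gene family, Fabp9 and Fabp12, had start sites 14.99 and 42.0 kb from the peak. Over 1 library, a region with no peak shows only that none passed the authors' peak calling there. That calling used uniquely mapped tags and asked for 8 tags and 4 times the input and the surrounding 10000 bp. It also kept peaks at least 344 bp apart.

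Pdk4 is induced by fasting in liver and muscle, and elements far upstream have been described for the human gene, entered here as the region 5 to 15 kb upstream. Both Pdk4 peaks lay in that region, at 8916 bp and 13.5 kb, and none in the 1 kb next to the start site. The distal peak stands in row 12 of the list and was the only one of the 14 with 2 DR1 matches. They face the same way, and both carry C5G, with C12T as the second change in one and A8G in the other.
Pdk4, chr6:5509769-5509941 (mm10, + strand): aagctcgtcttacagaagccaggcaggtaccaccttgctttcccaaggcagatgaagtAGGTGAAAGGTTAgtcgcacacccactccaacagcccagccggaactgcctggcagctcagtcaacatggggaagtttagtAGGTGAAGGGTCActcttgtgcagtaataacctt

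The Pdk4 region held 1 more DR1 match, ttgaCGGTCAAAGGACA at 11896 bp upstream, which was 1557 bp outside the nearest peak. The nearer Pdk4 peak had a best 13-mer of 4 mismatches (aactATGTCACAGTAGA). No other protein-coding start site lay within 100 kb of either peak: that of Asb4, the nearest, was at 115 and 119 kb.

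For Cpt1a, elements have been described in liver in the first introns of the human and rat genes and 2 to 4 kb upstream in rat. Both Cpt1a peaks were in intron 1, at 2371 bp and 11.1 kb from the principal start site, and neither intron 2 nor the upstream region had a peak. The second of the 2 lay 638 bp downstream of the start of an alternative transcript model with no support level in the annotation. Neither peak held a DR1 match. The best 13-mer of the proximal peak was caaaCGGTCAAAGTACA, with 3 mismatches, 2 bp from the peak centre. By the weight matrix score described below it was the weaker of the 2, with 5.13 (68.0% of all peaks scored as high), against 12.8 (25.1%) for the best 13-mer of the other peak, which also had 3 mismatches.

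Intron 1 of Cpt1a held 8 DR1 matches, all outside peaks. They include gtggAGGTCAGAGGTCA, an exact repeat 18728 bp downstream of the start site in repeat-masked sequence, and a second copy of the same 17 bases lay in intron 2, also masked. The match aagtAGGGGAGAGGTCA, 13379 bp downstream, was not masked as repeat and lay 2208 bp from the nearest peak. It has the same 4 bases upstream and the same changes, T4G and C5G, as the proximal Hilpda element. Per the series text the authors kept only tags with a unique position in the genome. How far that limits peaks over repeat-masked sites was not tested.

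Across the 6 genes, DR1 matches were present in 6 of the 14 peaks (42.9%, exact 95% interval 17.7 to 71.1). The same share was 19.7% over the 2523 peaks not assigned to these genes (496 peaks, interval 18.1 to 21.3) and 3.39% of 5074 windows of the same width 1000 bp to either side of all peak centres. The interval of the 14 peaks includes the share of the other peaks. The 7 elements lay between 3 and 62 bp from their peak centres.

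The 7 elements, from 4 of the 6 genes, had several bases in common. At position 5, where the repeat has C and G counts as a mismatch, G stood in 5 of the 7, against 12.9% of the best DR1 matches in other peaks (64 of 496) and 4.74% of all 342234 DR1 matches in the genome. These shares are not at equal mismatch number. Of the 496, each the match with fewest mismatches in its peak, 163 had at most 1 mismatch. A match with fewer mismatches has less room for such a G. In the bases that the search did not fix, T stood directly upstream of the repeat in 6 of the 7 (46.4% in other peaks and 17.7% in the genome), and the pair GT in 5 of the 7 (19.0% and 4.42%). The spacer was A in 6 of the 7 (52.4% and 24.2%). All 7 had exactly 2 mismatches, divided evenly with 7 in the 5′ and 7 in the 3′ repeats, while in other peaks 53.7% of the 803 mismatches were in the 5′ repeat. These features were chosen after the sequences had been seen, and 7 elements, 2 of them from 1 peak, are too few to set apart from other peaks.

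Most DR1 matches near the 6 genes lay outside peaks. Within 100 kb of the start sites of the 6 genes there were 232 DR1 matches, of which 7 lay in a peak (3.02%, exact 95% interval 1.22 to 6.12), against 0.158% of matches across the genome (542 of 342234). These shares are not like for like. All 6 genes have peaks and were named with that known, while the genome also counts stretches without any peak. The share around other genes with a peak was not computed. The 32 matches with at most 1 mismatch, 18 of them repeat-masked, all lay outside peaks (0 of 32, exact upper bound 10.9%). Across the genome 0.376% of such matches lay in peaks, and 0.555% of exact ones. A score that also reads the bases upstream and the spacer, a weight matrix of 17 positions made from the 496 DR1 matches of other peaks, was then given to each match. The 7 elements in peaks scored 16.2 to 20.5 (log2 odds, median 18.7), and the 225 outside 5.41 to 22.6 (median 12.8). The ranges overlap: 35 matches outside peaks scored at least as high as the lowest of the 7. Among them was the Angptl4 intron 3 match, too close to a peak to have its own. Across the genome, 307 of the matches in peaks reached that score and 235 did not. Outside peaks, 43352 matches reached it, so 0.703% of all that did lay in a peak. Matches in other peaks supplied the matrix, so their scores are not independent of it.

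**Figure D3:**
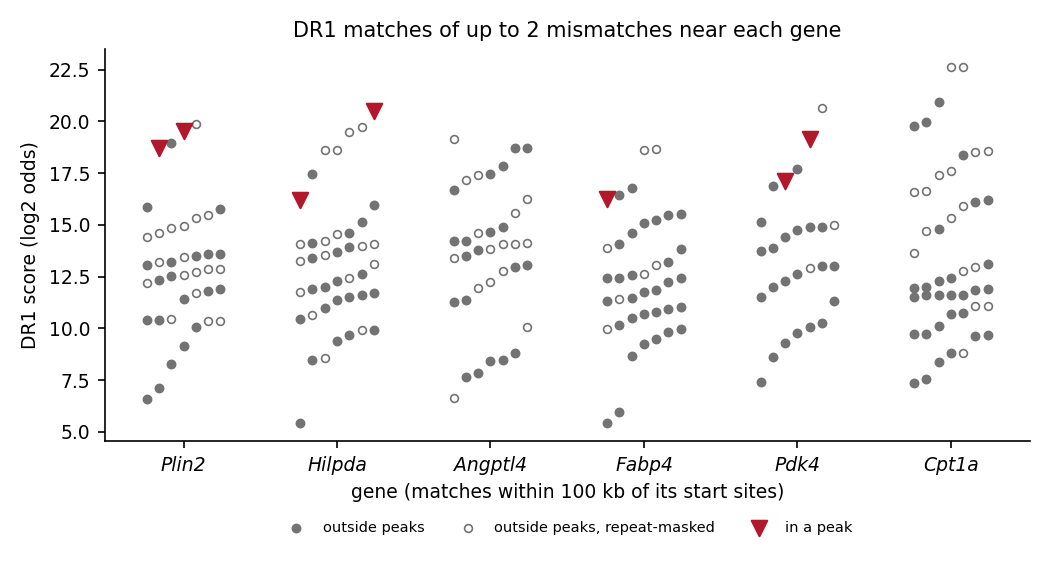
Score (y axis, log2 odds of the 17-position weight matrix) of each of the 232 DR1 matches within 100 kb of the start sites of the 6 genes, with those in a peak as red triangles and repeat-masked ones as open circles. The 7 matches in peaks lie between 16.2 and 20.5, and the highest scores, 22.6, belong to 2 repeat-masked Cpt1a matches outside peaks.

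Counted by the best 13-mer in each peak, 4 of the 14 peaks were in the top 10% of all 2537 peaks: the proximal Hilpda peak, the distal Plin2 and Pdk4 peaks, and the Plin2 peak at 1999 bp. The median score over the 14 peaks was 13.9, against 8.10 over all peaks and 3.40 over the flanking windows. The lowest was the Plin2 peak at 19.5 kb, with 3.15.

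**Figure D4:**
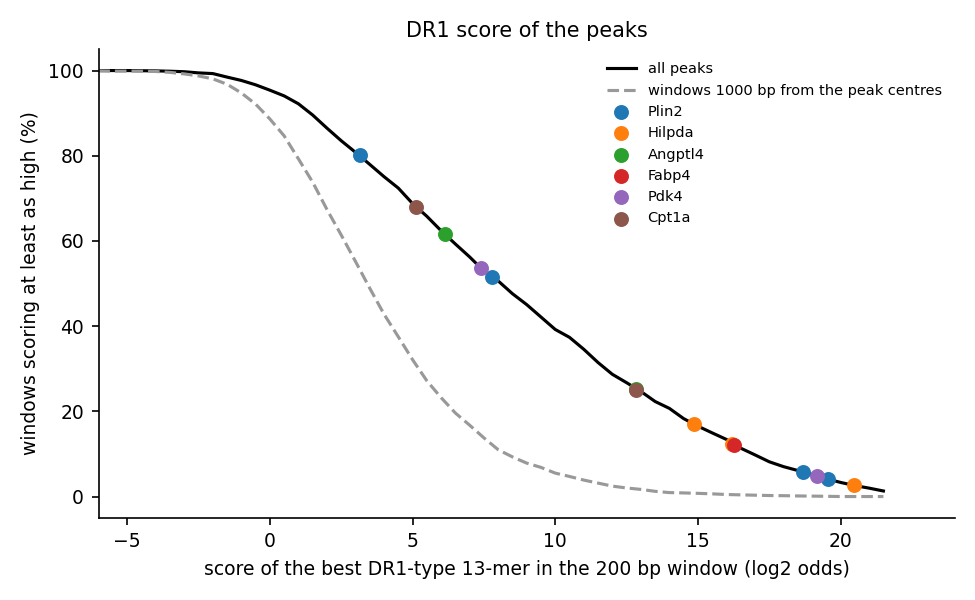
Share of windows (y axis, percent) whose best 13-mer scores at least the value on the x axis (log2 odds), for all peaks (solid) and for windows 1000 bp away (dashed), with the 14 peaks of the 6 genes as coloured points. The points spread from 3.15 to 20.5, with 4 in the top 10%.

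Short motifs of other factor families were counted in the same windows. AP-1, searched as TGANTCA, is bound by FOS and JUN proteins of activated T cells. It occurred in 0 of the 8 peaks without DR1 and in 1 of all 14, against 23.5% of other peaks and 6.09% of flanking windows. The 1 was the Plin2 peak at 1999 bp. GATAAG, the site of GATA factors, to which the TH2 factor GATA3 belongs, occurred in 0 of 14 (10.1% of other peaks). The letters GGAAGT of ETS factors occurred in 4 of 14 (14.5%), TGTGGT of RUNX factors in 2 (18.6%) and ACGTG, the core of the hypoxia response element, in 2 (9.99%), the proximal peaks of Hilpda and Plin2. CCAAT, bound by NFY, occurred in 3 of the 14, all without DR1 (22.1% of other peaks), TTCNNNGAA of STAT factors in 2 (9.87%), GGAAAA of NFAT in 1 (18.5%) and TTGCNNCAA of CEBP factors in 0 (1.82%). Each motif was searched on both strands of the 200 bp window, and a match or its lack says nothing of binding by these factors.

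The peaks differed in their place in the file. Its header names 15 columns while the rows hold 6, the score is 1 in every row, and what orders the rows is not stated. Row number and the number in the peak name rose together within each chromosome (Spearman rho 0.673 to 0.873 over 20 chromosomes, across peaks that share 1 library). DR1 matches were found in 80 of the first 250 rows (exact 95% interval 26.3 to 38.2%), and in 19.6% of the next 250. Later stretches of about 500 rows held between 14.2 and 22% DR1 peaks. Among the first 250 rows were 6 of the 14 peaks, from 4 genes. They were row 12 (Pdk4, 13.5 kb), row 49 (Plin2, 20.2 kb), row 92 (Angptl4, intron 3), row 95 (Plin2, 1999 bp), row 104 (Hilpda, 25.6 kb) and row 226 (Hilpda, proximal). The 6 peaks with DR1 had a median row of 99.5 and the latest was Fabp4 in row 647. For the 8 without DR1 the median was 1617.5, from row 92 (Angptl4) to row 2480 (Cpt1a, proximal). Whether an early row means a stronger peak was not tested.

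**Figure D5:**
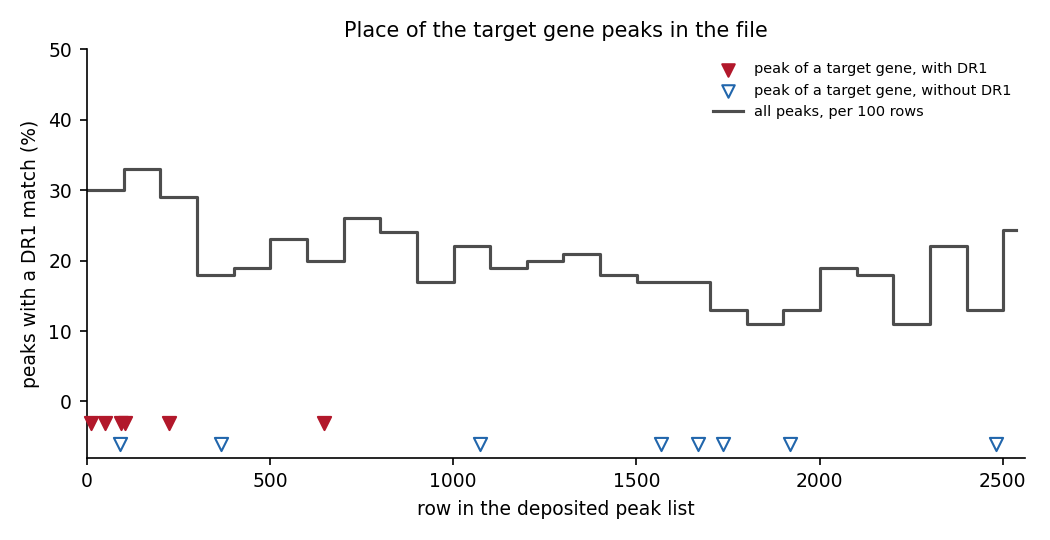
Share of peaks with a DR1 match in each stretch of 100 rows of the deposited list (line, y axis in percent; the last stretch is shorter), with the rows of the 14 peaks below (x axis; filled with DR1, open without). The 6 DR1 peaks fall in rows 12 to 647 and the open triangles reach row 2480.

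Of 52 other genes of the PPAR programme in fat and liver, 20 had a peak (38.5%, exact 95% interval 25.3 to 53.0), beside 8.35% of all protein-coding genes, and 11 had a peak with DR1. This list too was written with earlier results known. Of those 20, 8 had a peak within 1 kb of any of their start sites. By the same measure 1 of the 6 genes did (Cpt1a, 638 bp from its alternative start site), and 12.1% of all genes with a peak. Among them were Slc25a20 (1 bp), the thiolase gene Acaa2 (123 bp), Eci2 (134 bp), Etfdh (324 bp), Acadvl (325 bp), Dgat1 (343 bp) and Acot2 (429 bp). Several genes as classical as the 6 had no assigned peak. Lipoprotein lipase Lpl and the fatty acid transporter Cd36 were 1061 and 3496 kb from the nearest peak. For the lipid droplet coat genes Plin1, Plin4 and Plin5 the distances were 276, 157 and 165 kb, and for Cpt1b and Cpt2, which also serve fatty acid import, 216 and 119 kb. The adiponectin gene Adipoq had a peak at 17.6 kb, which the rule gave to another gene.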

How the data were processed

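The values are peak positions of 1 ChIP library of TH2 cells. The input was the authors' background and is not analysed here. The authors aligned reads to mm10 with Bowtie2, per the submitters' processing notes, and kept uniquely mapped tags, per the series text. Per the file headers, HOMER called peaks at a false discovery rate of 0.001 (8 tags), with at least 4 times the input and the surrounding 10000 bp, and at least 344 bp between peaks. The header counts 3239 putative peaks, of which the input filter took out 682 and the local filter 20. Of these tools no version is given in the sources used here. The series text gives 100 bp reads and the labels' protocol 50 bp, which no value depends on. The deposited score is 1 in each row and was not used as a strength.

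Coordinates, printed counting from 1, were read against GRCm38, the assembly of mm10 (RefSeq sequence and masking, GENCODE vM21 genes). Start sites were those of protein-coding transcripts, and the principal transcript was the APPRIS one with the best support. Matches and scores came from scripts in Python 3.11.15 (numpy 2.4.6, pandas 2.3.3, pysam 0.24.0, scipy 1.17.1, matplotlib 3.10.9), tested on simulated sites. The weight matrix used a pseudocount of 1. Exact binomial (Clopper-Pearson) intervals at 95% cover counting error only. No hypothesis test was run. The genes, lists and published regions were chosen with earlier results of these data known. All peaks of the 6 genes are named. Of the other PPAR targets, the rule took the 8 with the nearest assigned peak and a fixed set of 10, and some of these, with 1 peak sequence, are not reported here.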

Additional observations from a re-analysis of the deposited data

How the results depend on the processing

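The 6 genes had a peak under 6 other rules for start sites and distance, and 4 had one with DR1 peaks alone. Under those 6 rules the share of all protein-coding genes with a peak ran from 6.06% (nearest start site within 10 kb) to 24.04% (any start site within 100 kb), against 8.35% as reported. Peaks per rule ranged from 10 (within 10 kb) to 14. With DR1 peaks alone the count of peaks was 6, that of other PPAR target genes 11 and that of published regions 3. With at most 1 mismatch, 0 of the 14 peaks held a DR1 match. Of the 32 such matches near the genes, 0 lay in a peak. The 7 elements in peaks all had exactly 2 mismatches, so none of them qualified. Up to 3 mismatches gave 64.3% of the peaks (48.3% of all peaks), and 400 bp windows 50.0% (24.9%), which adds the Angptl4 intron 3 element. Within 10 kb of the start sites, 7.69% of DR1 matches lay in a peak (3 of 39), where the cause of the difference was not tested. The nearest Cpt1a peak was at 638, 2371 or 3322 bp by the nearest, principal or outermost start site, the principal one having been added after the data were seen. Competition from noncoding genes left 12 peaks. No paired analysis was possible because there is 1 ChIP library. A missing peak means only that the authors' peak calling, with its thresholds, filters and spacing, gave none at this depth.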
